A study of Mus musculus with 10 samples.

Results

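Visceral white adipose tissue (WAT) of Mof heterozygous (Mof+/-) mice was compared with that of wild-type (Mof+/+) mice on a standard diet (SD), before any high-fat feeding. The 6 libraries, 3 of each genotype, were those whose sample labels name this diet, out of 10 libraries in the series, and 14346 of 47937 listed genes had at least 10 counts in at least 3 of them. The mice were C57BL/6 by the labels and 8 weeks old by the series design text, and the methods of the study give male mice for this tissue. Both groups ate the same chow, and the only labelled difference between them was the genotype, wild type against heterozygous Mof. The RNA came from pieces of whole tissue of equal weight, so that fewer cells of a type and less RNA per cell cannot be told apart. Counts on genes ranged from 7301119 to 7829250 per library in Mof+/+ and from 6724618 to 17171947 in Mof+/-.

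MOF, the protein made from Kat8, is the acetyltransferase that places the acetyl group on lysine 16 of histone H4, and it works within the MSL and NSL complexes at promoters and along active genes. White fat stores triglyceride in adipocytes, which take up glucose and fatty acids under the control of insulin and secrete adipokines such as adiponectin. Adipocytes make up most of the volume of the tissue but only a part of its cells, and the rest are endothelial cells, mural cells of the vessels, progenitors, immune cells and, at the surface of visceral depots, mesothelium.

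Kat8 (ENSMUSG00000030801.10, GRCm38 chromosome 7, 127912516 to 127925837, plus strand) was examined first. Scaled to each library's total count on genes (CPM), it was at 21.5, 21.4 and 20.4 in Mof+/+ replicates 1 to 3 and at 12.2, 18.8 and 11.5 in the libraries labelled Mof+/- replicates 1 to 3. The exact Clopper-Pearson 95% interval of the library labelled Mof+/- replicate 2, 16.3 to 21.6 CPM, reached into those of all 3 Mof+/+ libraries, of which the lowest bound was 17.3 CPM. The intervals of the libraries labelled Mof+/- replicates 1 and 3, 10.6 to 14.0 and 9.04 to 14.3 CPM, lay below that bound. These intervals cover counting error only. All further values are CPM scaled by TMM, a normalization that sets most genes level between libraries, and on this scale Kat8 was at 18.7 ± 0.87 CPM (SD, n = 3) in Mof+/+ and 16.0 ± 4.15 CPM (SD, n = 3) in Mof+/-. On this scale the groups overlapped, with a log2 fold change of -0.22 (SE 0.36, edgeR adjusted p = 0.744), whereas on total counts all 3 Mof+/- libraries lay below all 3 Mof+/+ libraries, with a log2 fold change of -0.58 (SE 0.36, edgeR adjusted p = 0.324). Neither passed, and Mof+/- below therefore stands for the libraries labelled so.

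Transcripts from the sex chromosomes separated the genotypes completely. Xist, the RNA that coats the inactive X chromosome of female cells, had no counts in the 3 Mof+/+ libraries and stood at 152, 51.1 and 70.3 CPM in the 3 Mof+/- libraries, at least 262-fold higher against a floor of 3 counts per library. The Y-linked genes Ddx3y, Eif2s3y, Kdm5d and Uty had no counts in any Mof+/- library, while Ddx3y was at 65.4, 89.9 and 64.0 CPM and Eif2s3y at 78.2, 55.2 and 62.5 CPM in Mof+/+. Their levels in Mof+/- were at least 209-fold lower for Ddx3y, 186-fold for Eif2s3y, 83.4-fold for Kdm5d and 43.8-fold for Uty. Of the X-linked partners of these Y genes, Eif2s3x rose from 32.7, 40.9 and 39.9 CPM to 81.4, 72.6 and 166 CPM (log2 fold change 1.49, SE 0.35, edgeR adjusted p = 0.0471, and 0.0622 with the length correction described below), and the other 3 tested did not pass. These transcripts go against male mice for all 6 libraries, and genotype and the presence of Y-linked transcripts cannot be told apart in any comparison below.

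**Figure D1:**
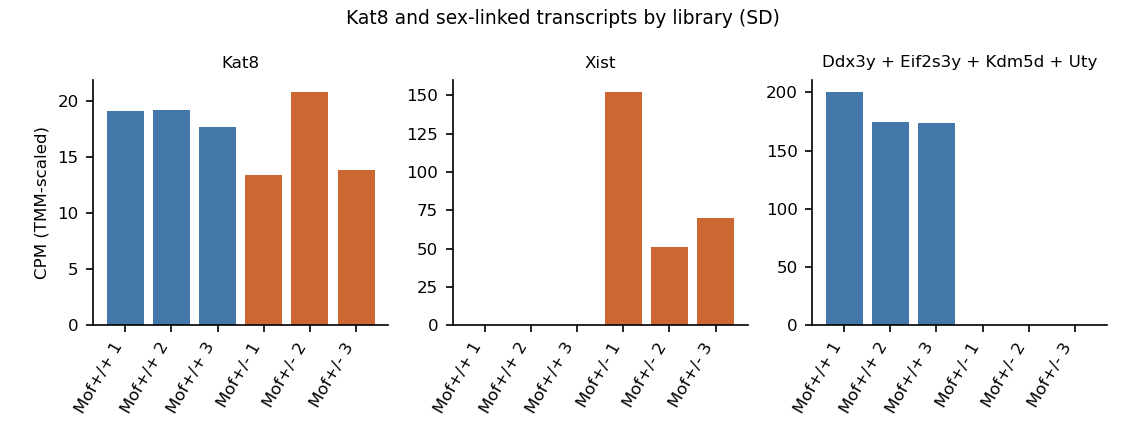
Kat8, Xist and the sum of 4 Y-linked genes in each SD library, as bars of TMM-scaled CPM, with Mof+/+ in blue and Mof+/- in orange. Kat8 overlaps between the groups on this scale, Xist is present in the 3 Mof+/- libraries alone, and the Y-linked sum is above 0 in the 3 Mof+/+ libraries alone.

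The comparison asks which genes differ at baseline. In edgeR's quasi-likelihood test, 461 of 14346 genes (3.21%) rose and 253 (1.76%) fell in Mof+/- at an adjusted p under 0.05, 4.98% in all. Without regard to a test, 2490 genes (17.4%) lay higher and 2489 (17.3%) lower with no overlap between the groups, 34.7% in all. The split depended on scaling. With CPM on total counts in place of TMM, the median log2 fold change of all genes moved from -0.07 to -0.43, and 150 genes rose while 522 fell. Changes are therefore relative to the bulk of genes. Leaving out 1 library left the fit with fewer samples and gave 19, 36 and 77 genes without Mof+/+ replicates 1, 2 and 3, and 1128, 17 and 740 genes without Mof+/- replicates 1, 2 and 3. Xist, Ddx3y, Eif2s3y, Dbp, Fbln1, Thbs2, Sfrp4, Sult1e1, C130026I21Rik and Gm2619 passed in all 6 of these fits. Inside the files of replicate 3, each heading names the opposite genotype to the sample label, which was followed here. Grouped by heading, no gene passed edgeR's test, with 257 at an unadjusted p under 0.05. Mof+/- replicate 3 stood apart, with correlations of log2 CPM to the other libraries from 0.77 to 0.90.

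Transcript length ran through the whole comparison. For each library, the Spearman correlation over genes between transcript length and the gene's deviation from its mean was 0.23, 0.26 and 0.19 in Mof+/+ replicates 1 to 3 and 0.02, -0.21 and -0.31 in Mof+/- replicates 1 to 3. No Mof+/- value reached the lowest Mof+/+ value, and the two-sided exact permutation p = 0.1 is the smallest that 3 libraries against 3 can give. Long transcripts were thus low in Mof+/- replicates 2 and 3, and close to level in Mof+/- replicate 1. When genes were cut by length into 5 equal bins, 6.88% rose and 1.29% fell in the shortest bin (median length 619 nt), and in the longest (median 3561 nt) 0.733% rose and 3.39% fell. The median length was 808.5 nt for genes that rose and 2125 nt for those that fell, against 1404 nt for all genes tested. The same correlation with GC content was -0.06, -0.009 and -0.009 in Mof+/+ and -0.09, -0.09 and 0.12 in Mof+/-, so that Mof+/- replicate 3 had the strongest dependence of the 6 libraries and the genotypes overlapped. When a smooth curve on length was removed from each library, 276 genes (1.93%) rose and 175 (1.22%) fell, of which 223 and 159 were also called without the correction. The correlation of log2 fold change with length across genes, which are not independent replicates, went from -0.30 to 0.01. Length-corrected values are given below beside most lists and for calls that were lost.

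**Figure D2:**
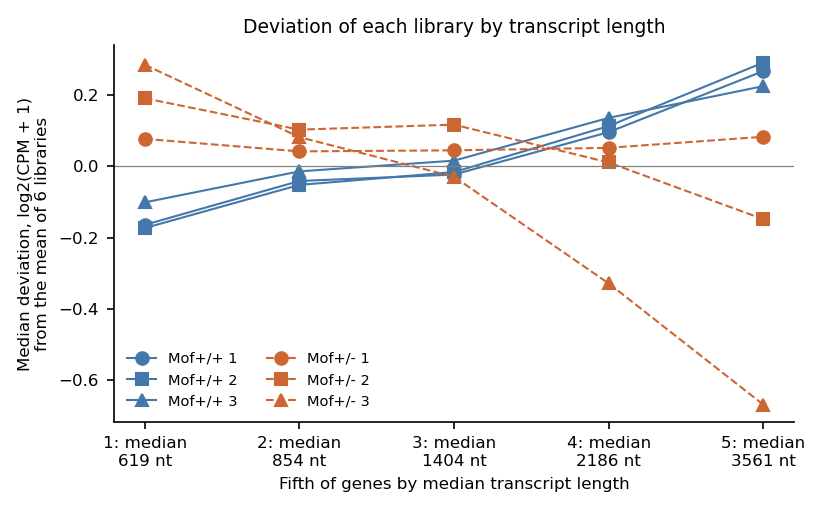
Median deviation of each library from the mean of the 6 libraries, in log2(CPM + 1), for genes in 5 equal bins by median transcript length. The Mof+/+ lines (blue, solid) run upward from short to long transcripts in all 3 libraries, whereas Mof+/- replicate 3 falls from 0.29 to -0.67 and Mof+/- replicate 1 stays near 0.

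The 4 longest transcripts among genes that fell with a mean of at least 50 counts, Helz2, Tnc, Tspan7 and Abcc9, all lost the call with length corrected, while 32 genes of the longest bin were called lower after the correction. Acacb, described with lipid synthesis, has a transcript of 6680 nt, close to the 6760 nt of Abcc9, and kept its call. Abcc9, a subunit of ATP-sensitive potassium channels of vessel walls, was at 70.5, 62.6 and 47.1 CPM in Mof+/+ and 15.7, 15.3 and 15.3 CPM in Mof+/-. Its log2 fold change of -1.96 (SE 0.28, edgeR adjusted p = 0.0193) became -1.01 (adjusted p = 0.126) with length corrected. Helz2 went from -2.26 to -1.37 (adjusted p = 0.0886) and Tspan7 from -1.13 to -0.16 (adjusted p = 0.806). Tnc, the other gene named for its length, is given with the matrix.

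Endothelial genes were lower in Mof+/-. Of 38 genes of angiogenesis and endothelial identity, 18 fell and none rose (against 1.76% and 3.21% of all genes), 29 lay lower without overlap (17.3% of all genes did), and the median log2 fold change was -1.85 against -0.07 for all genes. The members that fell included VEGF receptors (Kdr, Flt1, Flt4), junction proteins (Cdh5, Esam, Pecam1) and Notch pathway members (Dll4, Notch4). Cdh5, the cadherin of endothelial junctions, was at 510, 283 and 220 CPM in Mof+/+ and 47.3, 34.9 and 37.9 CPM in Mof+/-, 8.42-fold lower (log2 fold change -3.07, SE 0.36, edgeR adjusted p = 0.00989). Every Mof+/- library lay under every Mof+/+ library, and Mof+/+ replicate 1 was the highest. Dll4, the Notch ligand of sprouting tip cells, was at 78.5, 39.2 and 30.2 CPM against 6.06, 7.11 and 6.13 CPM (log2 fold change -2.93). Tie1, an endothelial receptor tyrosine kinase, was at 260, 86.6 and 101 CPM against 22.5, 21.2 and 17.5 CPM (-2.86), and Pecam1, or CD31, at 624, 261 and 253 CPM against 78.7, 67.1 and 73.4 CPM (-2.38). Aplnr, the apelin receptor of sprouting vessels, had the largest fall of the 18, from 187, 93.5 and 52.0 CPM to 4.15, 2.12 and 2.52 CPM, 36.8-fold (edgeR adjusted p = 0.00595). Cldn5, a tight junction protein, was an exception, with 290, 170 and 181 CPM against 37.6, 71.9 and 295 CPM and Mof+/- replicate 3 above all Mof+/+ libraries (edgeR adjusted p = 0.571). With length corrected the median was -1.73 and 14 genes fell. The 18 calls were 2, 3 and 6 without Mof+/+ replicates 1, 2 and 3, 0 without Mof+/- replicate 2, and 15 and 17 without Mof+/- replicates 1 and 3. In these fits 29 to 32 genes lay lower without overlap. That count is no check, since leaving out a library can hardly undo a lack of overlap.

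Genes of the vessel wall split. Rgs5, a regulator of G-protein signaling found in pericytes, was at 444, 353 and 396 CPM in Mof+/+ and 121, 105 and 120 CPM in Mof+/-, 3.46-fold lower (edgeR adjusted p = 0.0122). Notch3 and Pdgfrb, receptors of pericytes and vascular smooth muscle, also fell (log2 fold change -2.21 and -1.46, edgeR adjusted p = 0.0276 and 0.0362). With length corrected the changes of Notch3 and Pdgfrb were -2.35 and -0.71, and Pdgfrb no longer passed (adjusted p = 0.125). These were the 3 falling calls among 8 mural markers, beside 1.76% of all genes that fell, and they were 0, 1 and 1 without Mof+/+ replicates 1, 2 and 3, and 4, 0 and 3 without Mof+/- replicates 1, 2 and 3. No mural marker rose, but DESeq2 called 3 higher and edgeR without Mof+/- replicate 1 called 4, and the median of the 8 was 0.41, or 1.21 with length corrected. Lama5, a laminin chain of vessel basement membrane, fell from 88.5, 39.0 and 51.9 CPM to 8.04, 6.80 and 6.13 CPM (-3.09, edgeR adjusted p = 0.0122), the only call among 13 basement membrane genes, beside 1.76% of all genes that fell. It did not pass without Mof+/+ replicate 1 or Mof+/- replicate 2. Contractile genes of smooth muscle ran the other way in Mof+/- replicates 2 and 3. Tagln, or SM22, was at 150, 62.6 and 88.9 CPM in Mof+/+ and at 88.0, 1480 and 3549 CPM in Mof+/- (edgeR adjusted p = 0.0569), and Acta2, smooth muscle actin, at 183, 87.3 and 138 CPM against 103, 1087 and 2210 CPM (adjusted p = 0.0727). Mof+/- replicate 1 lay within or near the Mof+/+ range for both genes, so that the groups overlapped. Tpm2, a tropomyosin, and Pdlim3, an actin-associated protein, passed in edgeR (adjusted p = 0.0471 and 0.045) with the same shape, Tpm2 at 48.6, 10.3 and 31.1 CPM against 59.5, 590 and 1786 CPM. Tpm2 and Pdlim3 each passed in 1 of the 6 fits that left out a library, and with length corrected their adjusted p-values were 0.0522 and 0.0496. In the same libraries Ovgp1, an oviduct glycoprotein, was at 2.62, 0.12 and 0.89 CPM in Mof+/+ and 0.57, 20.9 and 45.1 CPM in Mof+/- (edgeR adjusted p = 0.109), and the sum of 7 mammary epithelium markers, none of them tested, was 0, 0 and 0.78 CPM against 0.19, 16.3 and 44.9 CPM. Their part in the smooth muscle values was not tested.

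Genes of the circadian clock differed in both directions. The core of the clock is a loop in which BMAL1 (made from Arntl) and CLOCK drive genes such as Per, Cry, Dbp and the nuclear receptors Nr1d1 and Nr1d2 through the E-box, and NR1D1 and NR1D2 in turn repress Arntl through ROR elements. Of 15 clock genes, 3 rose and 2 fell, beside 3.21% and 1.76% of all genes. Dbp, an output transcription factor, was at 8.88, 11.6 and 10.2 CPM in Mof+/+ and 205, 153 and 133 CPM in Mof+/-, 16.1-fold higher (log2 fold change 4.01, SE 0.28, edgeR adjusted p = 0.00156). Nr1d1, or REV-ERB alpha, rose from 9.11, 50.9 and 27.6 CPM to 322, 275 and 304 CPM, 10.3-fold (adjusted p = 0.0267 in edgeR). Nr1d2 rose from 12.2, 19.0 and 23.5 CPM to 89.8, 91.6 and 59.5 CPM, 4.41-fold (edgeR adjusted p = 0.0234). Arntl fell from 31.8, 40.8 and 21.9 CPM to 1.66, 1.70 and 2.16 CPM, 17.2-fold (edgeR adjusted p = 0.00625). Cry1, a repressor of BMAL1 and CLOCK, fell from 27.3, 30.8 and 26.4 CPM to 2.36, 5.42 and 0.54 CPM, 9.91-fold (edgeR adjusted p = 0.0385). The 3 Mof+/- libraries lay together on the far side of the 3 Mof+/+ libraries for all 5 genes, as the rule for naming them required. The partners of BMAL1 were lower too, without overlap and short of the threshold, Clock at 89.7, 112 and 58.5 CPM against 49.6, 51.7 and 38.4 CPM (edgeR adjusted p = 0.103) and Npas2 at 9.57, 5.91 and 6.60 CPM against 1.66, 1.27 and 2.88 CPM (adjusted p = 0.157), both named after their values were seen. The other 8 members, Per1, Per2 and Per3 among them, overlapped. With length corrected the same counts, 3 rising and 2 falling, were found, and the changes of Dbp and Arntl were 3.90 and -3.73. Of the 5 genes, only Dbp passed in all 6 fits that left out a library, Arntl passed in 4, Nr1d1 in 3, Nr1d2 in 2 and Cry1 in 1. The hour at which tissue was taken is not given in the sources used here.

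**Figure D3:**
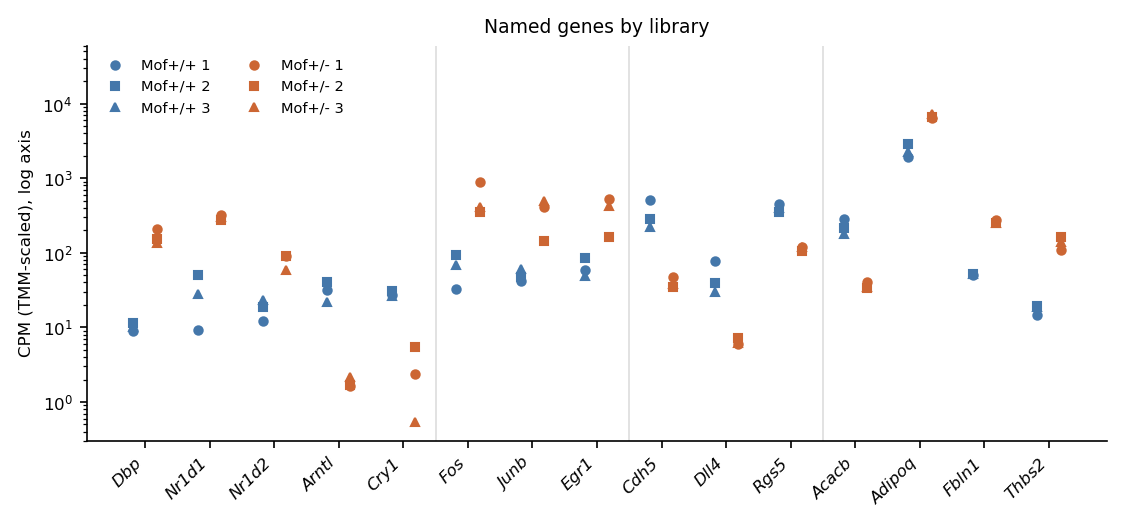
TMM-scaled CPM on a log axis of clock genes, immediate early genes, vascular genes, and adipocyte and matrix genes in each library, with Mof+/+ in blue at the left and Mof+/- in orange at the right of each gene and a symbol per replicate. For all 15 genes shown the 3 libraries of one genotype lie apart from the 3 of the other, which was a condition for naming list members by p.

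To show the sequence next to the expression values, the promoters of clock and immediate early genes were searched on both strands for the E-box (CACGTG), the core of the ROR element (TAGGTCA), the D-box (TTATGTAA), the cAMP response element (TGACGTCA) and the CArG box bound by serum response factor. RefSeq windows of 300 bases around annotated starts (GRCm38.p6) were found for 13 of 15 clock genes and 11 of 13 immediate early genes. Among all 27025 genes with a window, 8.09% held an E-box, 2.97% the ROR core, 1.11% the D-box, 2.03% the cAMP element and 1.81% the CArG box. The E-box was in 4 clock genes, Cry1, Per1, Tef and Ciart, the ROR core in Arntl alone, and no searched motif in the windows of Dbp, Nr1d1 and Nr1d2, which says only that these letters are not there. The upstream sequence of Cry1, the clock gene that fell with an E-box in its window, is shown from 250 bases before its start (chr10:85185055-85185304, minus strand), with the E-box in capitals, 60 bases before the start. The stretch of Arntl around the ROR core lies just inside the transcript from an annotated RefSeq start (chr7:113207531-113207557, plus strand, first base of the core at position 31), with the core in capitals.
Cry1: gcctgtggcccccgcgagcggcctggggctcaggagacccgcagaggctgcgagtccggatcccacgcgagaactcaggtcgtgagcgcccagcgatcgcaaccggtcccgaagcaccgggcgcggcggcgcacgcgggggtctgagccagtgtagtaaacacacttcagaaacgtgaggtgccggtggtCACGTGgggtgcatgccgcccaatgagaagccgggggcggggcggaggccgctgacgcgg
Arntl: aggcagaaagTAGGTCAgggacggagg

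Immediate early genes, which respond within minutes to growth factors and stress, were higher in Mof+/-. Of 13, 8 rose and none fell, 12 lay higher without overlap, and the median log2 fold change was 2.07, where 3.21% of all genes rose and 17.4% lay higher without overlap. Fos was at 32.6, 94.0 and 68.0 CPM in Mof+/+ and 889, 347 and 406 CPM in Mof+/-, 8.44-fold higher (SE 0.50 on the log2 scale, edgeR adjusted p = 0.0267). Junb, its partner in AP-1, rose from 42.0, 47.7 and 59.8 CPM to 409, 143 and 491 CPM, 6.98-fold (edgeR adjusted p = 0.0257). Egr1, a zinc finger factor induced with Fos, rose from 58.8, 86.2 and 48.8 CPM to 530, 164 and 426 CPM, 5.78-fold (edgeR adjusted p = 0.0301). Ier3, an early response gene of cell survival, rose from 4.56, 5.66 and 4.47 CPM to 47.6, 28.8 and 32.8 CPM, 7.43-fold (edgeR adjusted p = 0.0122). Mof+/- replicate 2 was the lowest of its group for Fos, Junb, Egr1 and Ier3 and, as the naming rule required, above every Mof+/+ library. Zfp36, which destabilizes AU-rich mRNAs, and Dusp1, a MAP kinase phosphatase, rose 3.53-fold and 3.02-fold, and Jun reached 764, 274 and 220 CPM against 97.9, 150 and 102 CPM with an edgeR adjusted p = 0.0562. With length corrected the median was 2.20 and 9 genes rose. The 8 calls were 0, 0 and 1 without Mof+/+ replicates 1, 2 and 3, and 7, 2 and 9 without Mof+/- replicates 1, 2 and 3.

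The upstream sequences of the immediate early genes that rose and held a motif before their start are shown next, each covering 250 bases to the base before the annotated start. Zfp36 (chr7:28379229-28379478, minus strand) holds the CArG box in capitals, 58 bases before its start. Dusp1 (chr17:26508473-26508722, minus strand) holds the cAMP element 143 bases and the E-box 126 bases before its start, both in capitals and not overlapping. The windows of the immediate early genes held the CArG box in 2 of 11 genes, Zfp36 and Egr2, the cAMP element in Dusp1 and Btg2, and the E-box in Dusp1 and Egr2.
Zfp36: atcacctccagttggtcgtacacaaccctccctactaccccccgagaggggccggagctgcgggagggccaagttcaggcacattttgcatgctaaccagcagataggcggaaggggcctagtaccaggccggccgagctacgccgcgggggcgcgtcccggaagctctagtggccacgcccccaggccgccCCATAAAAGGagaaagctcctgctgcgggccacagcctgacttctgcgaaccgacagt
Dusp1: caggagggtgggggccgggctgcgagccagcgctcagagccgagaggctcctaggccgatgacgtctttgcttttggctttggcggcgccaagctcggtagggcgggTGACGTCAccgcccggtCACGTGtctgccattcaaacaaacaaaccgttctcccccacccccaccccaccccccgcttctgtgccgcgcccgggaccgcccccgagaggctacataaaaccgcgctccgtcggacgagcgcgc

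Part of the genes for the respiratory chain, the ribosome and the proteasome rose, and fewer of them passed once length was corrected. Of 74 nuclear genes for subunits of oxidative phosphorylation, 33 rose and none fell, 67 lay higher without overlap, and the median log2 fold change was 1.27. Of all genes 3.21% rose and 17.4% lay higher without overlap, and of the shortest bin 6.88% and 29.9%. The median transcript length of the list was 607.5 nt, and with length corrected the median was 0.77 and 6 genes rose. Atp5h, a subunit of the stalk of ATP synthase, was at 172, 189 and 178 CPM in Mof+/+ and 491, 458 and 828 CPM in Mof+/-, 3.30-fold higher (edgeR adjusted p = 0.0286, and 0.0418 with length corrected). Cox7c, a small subunit of cytochrome c oxidase, rose from 113, 124 and 102 CPM to 300, 329 and 731 CPM (4.01-fold, edgeR adjusted p = 0.032), which became 0.0547 with length corrected. Atp5b, the catalytic subunit of ATP synthase and a longer transcript, was at 1251, 1654 and 1250 CPM against 1753, 1823 and 1401 CPM with groups that overlapped (edgeR adjusted p = 0.57). The 13 protein-coding genes of the mitochondrial genome had a median of 0.23, or -0.15 with length corrected, and none passed in edgeR, none at an unadjusted p under 0.05, and all overlapped. The 33 calls were 8 on total counts, 57 by DESeq2 and 21 with a replicate block. They were 0 without any one Mof+/+ library or Mof+/- replicate 2, and 44 and 36 without Mof+/- replicates 1 and 3.

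Of 79 cytosolic ribosomal protein genes tested out of 82, 28 rose and none fell, 75 lay higher without overlap, and the median was 1.495, against 1.10 with 4 genes rising once length was corrected. The shares were again 3.21% and 17.4% of all genes and 6.88% and 29.9% of the shortest bin. Rpl17 was at 383, 307 and 545 CPM in Mof+/+ and 993, 1176 and 1766 CPM in Mof+/-, 3.19-fold higher (edgeR adjusted p = 0.036), and Rpl11 at 310, 260 and 358 CPM against 828, 715 and 1081 CPM, 2.83-fold (edgeR adjusted p = 0.0306). Mof+/- replicate 3 was the highest library for both. Reads of this family can be split between genes and their processed pseudogenes, so single values are uncertain, and the 453 processed pseudogenes tested had a median log2 fold change of 1.23. The 28 calls were 2 on total counts, 10 with DESeq2 size factors, 76 by DESeq2 and 58 with a replicate block. They were 0 without any one Mof+/+ library or Mof+/- replicate 2, and 56 and 16 without Mof+/- replicates 1 and 3. Of 31 proteasome genes, 4 rose and 24 lay higher without overlap, beside 3.21% and 17.4% of all genes, with a median of 0.76, and 0.68 with 2 calls when length was corrected. By exon union the median was 0.39 with 16 genes higher without overlap, and on total counts it was 0.395. The 4 calls were 0 on total counts, 13 by DESeq2 and 1 with a replicate block, 0 without any one Mof+/+ library or Mof+/- replicate 2, and 8 and 4 without Mof+/- replicates 1 and 3. Psmb7, a catalytic subunit, was at 91.1, 103 and 111 CPM in Mof+/+ and 213, 196 and 207 CPM in Mof+/-, 2.02-fold higher (edgeR adjusted p = 0.04, and 0.0337 with length corrected).

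Of 8 adipocyte markers, 3 rose (Adipoq, Fabp4 and Cidec) and 5 lay higher without overlap, beside 3.21% and 17.4% of all genes. With length corrected 3 were called, by exon union 1, and with all 10 libraries in 1 fit 0. Cfd, or adipsin, was at 8828, 11160 and 10726 CPM in Mof+/+ and 13339, 18286 and 18485 CPM in Mof+/-, without overlap and without passing (edgeR adjusted p = 0.15), and its direction turned with the exon-union length offset. Cav1, the caveolin of fat cell membranes, was at 2275, 2764 and 1661 CPM against 2281, 2238 and 1295 CPM (edgeR adjusted p = 0.731). Adipoq, the hormone adiponectin, was at 1903, 2895 and 2276 CPM in Mof+/+ and 6489, 6622 and 7316 CPM in Mof+/-, 2.89-fold higher (log2 fold change 1.53, SE 0.27, edgeR adjusted p = 0.0301). The 3 Mof+/- values lay within a narrow band above all Mof+/+ values. Fabp4, the fatty acid binding protein of adipocytes, rose from 8667, 8598 and 6932 CPM to 17212, 24984 and 41636 CPM, 3.46-fold. Cidec, which enlarges lipid droplets, rose from 1252, 2070 and 1617 CPM to 4042, 5702 and 5359 CPM, 3.06-fold, and Cavin1, a coat protein of caveolae, rose 2.78-fold. Of the other adipokines, Retn (resistin) rose from 1403, 1947 and 1213 CPM to 3757, 3578 and 5197 CPM, 2.75-fold, and Rbp4, the retinol carrier, from 172, 320 and 198 CPM to 969, 737 and 1028 CPM, 3.97-fold. Pck1, which supplies glycerol phosphate for triglyceride in fat, rose 6.55-fold, from 144, 414 and 834 CPM to 2616, 4678 and 1827 CPM (edgeR adjusted p = 0.046, passing in 2 of the 6 fits that left out a library). In the whole adipokine and adipogenic list, 3 of 17 genes rose, beside 3.21% of all genes, and none fell, with a median of 0.29 that turned to -0.07 on total counts. Correcting length gave a median of 0.57 with 2 calls, and by exon union or with all 10 libraries there were 0 calls. The edgeR adjusted p-values of Adipoq, Fabp4, Cidec, Cavin1, Retn and Rbp4 lay between 0.0248 and 0.0431, and Retn became 0.0527 with length corrected. None of these 6 genes passed without Mof+/+ replicate 1 or 3 or Mof+/- replicate 2, only Rbp4 passed without Mof+/+ replicate 2, and all 6 passed without Mof+/- replicate 1 or 3.

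Regulators of lipid synthesis fell in the same tissue. Of 12 genes of de novo lipogenesis, 3 fell (1.76% of all genes did) and none rose, with a median of -0.80 (-0.84 with length corrected). The median was -1.75, -0.39 and -0.50 without Mof+/- replicates 1, 2 and 3, and -1.25 with the replicate block. Acacb, the acetyl-CoA carboxylase at mitochondria whose product restrains fatty acid oxidation, was at 286, 217 and 181 CPM in Mof+/+ and 40.3, 33.8 and 34.6 CPM in Mof+/-, 6.29-fold lower (log2 fold change -2.65, SE 0.26, edgeR adjusted p = 0.00469, and 0.0337 with length corrected). Mlxipl, the glucose-sensing factor ChREBP, fell from 234, 146 and 69.9 CPM to 37.4, 34.7 and 17.7 CPM, 4.98-fold, and Srebf1, the sterol and insulin responsive factor SREBP1, from 615, 633 and 337 CPM to 221, 191 and 121 CPM, 2.98-fold (edgeR adjusted p = 0.0375 and 0.0411). Fasn, the fatty acid synthase these factors drive, did not pass, since Mof+/- replicate 1 at 6280 CPM lay among the Mof+/+ libraries (6422, 7307 and 4242 CPM) and replicates 2 and 3 were at 815 and 1091 CPM (edgeR adjusted p = 0.354). The 3 calls were 1, 1 and 2 without Mof+/+ replicates 1, 2 and 3, and 7, 0 and 3 without Mof+/- replicates 1, 2 and 3. Of 18 genes of triglyceride synthesis and lipid droplets, Cavin1, Cidec and Pck1 rose, and of 17 genes of fatty acid oxidation only Etfb did, with medians of -0.11 and 0.63, beside 3.21% of all genes that rose. The medians were 0.18 and 0.58 with length corrected, with 3 calls and 1, and by exon union neither list had a call. The 3 triglyceride calls were 1 on total counts and also with all 10 libraries. Of the 17 fatty acid oxidation genes, 10 lay higher without overlap, beside 17.4% of all genes. That count was 10 with length corrected and 6 on total counts, and DESeq2 called 6 higher. The edgeR calls were 0 without any one Mof+/+ library or Mof+/- replicate 2, and 3 and 2 without Mof+/- replicates 1 and 3. Srebf2, the factor that drives cholesterol synthesis genes, fell from 71.6, 85.3 and 103 CPM to 44.4, 24.3 and 17.0 CPM, 3.01-fold (edgeR adjusted p = 0.0473, and 0.0487 with length corrected), and passed in 1 of the 6 fits that left out a library. Lipolysis, glycolysis and citric acid cycle genes had medians of 0.23, 0.28 and 0.28 with no gene passing in edgeR (2, 1 and 2 genes at an unadjusted p under 0.05), and all 3 medians turned negative on total counts, to -0.12, -0.07 and -0.09. With length corrected they were 0.14, -0.03 and 0.15, and 1 lipolysis gene passed as higher. DESeq2 called 1 lipolysis and 1 glycolysis gene higher, as did edgeR without a filter. Without Mof+/- replicate 3 edgeR called 1 lipolysis gene.

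Of 25 genes of insulin signaling, only Rictor, a core subunit of mTORC2, fell, from 38.7, 36.2 and 41.9 CPM to 17.1, 10.5 and 5.77 CPM (3.46-fold, edgeR adjusted p = 0.0471, and 0.0558 with length corrected), where 1.76% of all genes fell. Without overlap 8 lay lower and 1 higher, beside 17.3% and 17.4% of all genes. Slc2a4, the insulin-responsive glucose transporter GLUT4, was at 154, 217 and 152 CPM in Mof+/+ and 232, 251 and 259 CPM in Mof+/-, a log2 fold change of 0.50 (SE 0.24, edgeR adjusted p = 0.232) without overlap. Pik3r1, the regulatory subunit of PI3 kinase, was at 619, 548 and 231 CPM against 207, 182 and 66.7 CPM (adjusted p = 0.0849 in edgeR). The list had a median of -0.53, and with length corrected it was -0.24, with 1 other gene rising and none falling. By exon union the median was -0.07 with 0 calls, and 4 genes lay higher and 3 lower without overlap. Without Mof+/- replicate 3 the median was -0.29. Of 28 phosphoinositide and inositol phosphate enzymes, Itpkb and Plcg1 fell, 3.13-fold and 2.19-fold (edgeR adjusted p = 0.032 and 0.0486), and 14 lay lower without overlap, beside 1.76% and 17.3% of all genes, but neither passed with length corrected (0.152 and 0.0628). Rictor and Itpkb passed in 2 and Plcg1 in 1 of the 6 fits that left out a library.

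Of 26 genes of the interstitial matrix, 7 rose and Tnc fell, beside 3.21% and 1.76% of all genes, and with length corrected 8 rose and none fell, beside 1.93% and 1.22%. Fbln1, a fibulin of elastic fibres, was at 50.3, 52.7 and 51.4 CPM in Mof+/+ and 272, 253 and 251 CPM in Mof+/-, 5.02-fold higher (log2 fold change 2.33, SE 0.22, edgeR adjusted p = 0.00464). The libraries of each genotype lay close together, and far from those of the other. Thbs2, a matricellular inhibitor of angiogenesis, rose from 14.6, 19.6 and 18.7 CPM to 108, 161 and 137 CPM, 7.68-fold (edgeR adjusted p = 0.00464). Its relative Thbs1 rose from 45.8, 26.6 and 47.5 CPM to 214, 208 and 157 CPM, 4.83-fold, and Postn (periostin) from 125, 73.8 and 91.7 CPM to 273, 302 and 285 CPM, 2.96-fold (edgeR adjusted p = 0.0134 and 0.0276). With length corrected the log2 changes were 2.59 for Fbln1, 3.61 for Thbs2, 2.74 for Thbs1 and 1.94 for Postn. The 7 rising calls were 2, 2 and 3 without Mof+/+ replicates 1, 2 and 3, and 6, 2 and 7 without Mof+/- replicates 1, 2 and 3, and the median of 0.33 was -0.04 without Mof+/- replicate 1 and -0.02 on total counts. Fbln1 and Thbs2 passed in all 6 fits that left out a library, Thbs1 in 3 and Postn in 2. Sfrp4, a secreted Wnt antagonist, rose 22.2-fold, from 1.37, 3.94 and 4.14 CPM to 53.9, 78.8 and 77.5 CPM (edgeR adjusted p = 0.00523), and passed in all 6. Of 18 matrix proteases and their inhibitors, Mmp9 and Mmp14 rose, 4.93-fold and 2.40-fold (edgeR adjusted p = 0.032 and 0.046), where 3.21% of all genes rose. Mmp14 did not pass with length corrected (adjusted p = 0.0597) or in any of the 6 fits that left out a library, Mmp9 passed in 2 of them, and the median of the list went from -0.26 to 0.08 with length corrected. Tnc (tenascin C) fell from 25.1, 17.2 and 11.1 CPM to 2.55, 3.08 and 0.54 CPM (adjusted p = 0.046 in edgeR, and 0.0617 with length corrected), and passed in 1 of the 6 fits.

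Of 23 inflammatory mediators tested, Ccl2 and Cxcl2, chemoattractants of monocytes and neutrophils, rose and Nfkb1, a subunit of NF-kappaB, fell, beside 3.21% and 1.76% of all genes. Without overlap 6 lay higher and 3 lower, beside 17.4% and 17.3% of all genes, and 6 of these did not pass. DESeq2 called 6 higher and 3 lower, and edgeR called 0 by exon union and 0 with all 10 libraries. The median was -0.01, and 0.44 with length corrected. Ccl2 was at 5.47, 6.77 and 5.48 CPM in Mof+/+ and 33.8, 14.6 and 49.2 CPM in Mof+/- (5.49-fold, edgeR adjusted p = 0.0362), and Cxcl2 at 0.91, 0.49 and 1.34 CPM against 13.3, 2.76 and 35.3 CPM. With length corrected Ccl2 passed (adjusted p = 0.0426) and Cxcl2 and Nfkb1 did not (0.0527 and 0.0665). The 3 calls were 0 without any one Mof+/+ library or Mof+/- replicate 2, and 3 higher and 2 lower without Mof+/- replicate 1 and 1 higher without Mof+/- replicate 3. Of 15 interferon-stimulated genes only Ifi27l2a rose (3.21% of all genes did), from 457, 745 and 1068 CPM to 3592, 3722 and 4750 CPM, 5.31-fold (edgeR adjusted p = 0.0226, 0.0414 with length corrected, 0.133 by exon union, passing in 3 of the 6 fits that left out a library), and no MHC class II gene of 7 passed in edgeR or at an unadjusted p under 0.05. Of 15 macrophage markers, 4 rose, the complement chains C1qa, C1qb and C1qc with Folr2, C1qa from 169, 117 and 169 CPM to 342, 344 and 517 CPM (2.65-fold). With length corrected C1qb and C1qc did not pass (adjusted p = 0.0586 and 0.0562) and 3 macrophage markers did. The 4 macrophage calls, beside 3.21% of all genes, were 0 by exon union and also with all 10 libraries, 1 on total counts, 0, 0 and 1 without Mof+/+ replicates 1, 2 and 3, and 4, 0 and 6 without Mof+/- replicates 1, 2 and 3.

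No gene for MOF's partners passed, and most of those tested lay lower. Of 12 genes of the MOF, MSL and NSL complexes, 7 lay lower without overlap (17.3% of all genes did), the median was -0.63, or -0.39 with length corrected, and edgeR called none, with 5 at an unadjusted p under 0.05, 2 called lower by DESeq2, and edgeR calling 2 on total counts, 2 without a filter and 1 without Mof+/- replicate 1. Hcfc1, an NSL subunit, was at 105, 98.0 and 89.5 CPM in Mof+/+ and 62.7, 46.2 and 27.6 CPM in Mof+/- (edgeR adjusted p = 0.0736), Kansl3 at 76.5, 89.2 and 73.2 CPM against 52.3, 50.5 and 44.5 CPM (0.0993), and Msl1 at 100.2, 92.6 and 91.1 CPM against 71.7, 58.5 and 77.2 CPM (0.244). Lysine methyltransferases and demethylases had the same shape, with 13 of 23 lower without overlap, a median of -0.70 and no edgeR call, with 12 at an unadjusted p under 0.05. DESeq2 called 5 of them lower, and edgeR 3 on total counts, 4 without a filter, 1 with the replicate block and 4 without Mof+/- replicate 1. With length corrected the median was -0.55, and by exon union it was -0.29 with 4 genes lower without overlap. Of 330 numbered Zfp zinc finger genes, 59 lay lower and 14 higher without overlap, beside 17.3% and 17.4% of all genes, the median was -0.40, or -0.25 with length corrected and -0.20 without Mof+/- replicate 3, and edgeR called Zfp36 higher and Zfp366 lower. Of 10 replication-type histone genes tested out of 65, 3 rose (3.21% of all genes did), Hist1h1c, Hist1h2bc and Hist1h4h, and Hist1h4h did not pass with length corrected (adjusted p = 0.0537). The 3 histone calls were 0 by exon union and 0 without any one Mof+/+ library or Mof+/- replicate 2. Most histone mRNAs of this kind lack a poly(A) tail, and these libraries were made from poly(A) RNA. Near Kat8, within 5 Mb on either side, 3 of 123 genes rose and 2 fell, or 4.07%, beside 4.98% of all genes.

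**Figure D4:**
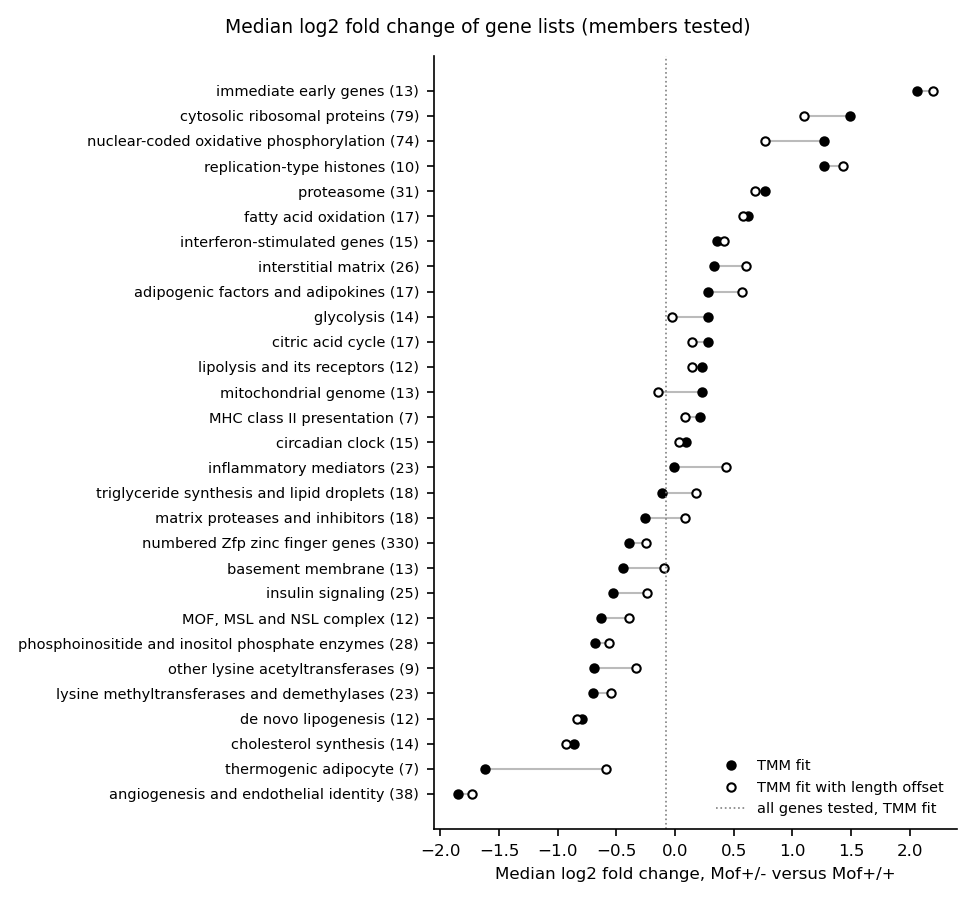
Median log2 fold change (Mof+/- versus Mof+/+) of each process list with the number of members tested, without (filled) and with (open) the correction for transcript length, and the median of all genes as a dotted line. Immediate early genes stand at 2.07 and 2.20 and endothelial genes at -1.85 and -1.73, whereas the medians of oxidative phosphorylation and ribosomal proteins drop from 1.27 to 0.77 and from 1.495 to 1.10.

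The genes of largest change, leaving out the sex-linked ones, included several that were at 0 in a whole group. Sult1e1, which sulfates and inactivates estrogens, was at 96.0, 34.5 and 65.5 CPM in Mof+/+ and had no counts in Mof+/-, at least 187-fold lower (edgeR adjusted p = 0.00469). C130026I21Rik was at 0 in Mof+/+ and at 56.1, 46.1 and 110 CPM in Mof+/-, at least 203-fold higher, and Gm2619 and Gm7609 were at least 99.9-fold and 31.1-fold higher. These 3 lie within one cluster on chromosome 1 and 2 of them are annotated as transcribed pseudogenes, so that reads could be split between copies and each value is uncertain. Cybrd1, a ferric reductase, was at 0 against 12.6, 15.6 and 12.8 CPM, at least 39.2-fold higher. Hoxa10, a homeobox factor of posterior body regions, rose from 0, 0.49 and 1.57 CPM to 15.7, 25.2 and 20.0 CPM (28.9-fold, edgeR adjusted p = 0.0383). C7, a complement component of the membrane attack complex, fell from 345, 205 and 379 CPM to 13.6, 10.4 and 0 CPM, 37.1-fold (edgeR adjusted p = 0.032). Avpr1a, a vasopressin receptor, fell from 16.3, 6.03 and 18.1 CPM to 0.38, 1.17 and 0 CPM, and Col8a1, a collagen of vessel walls, from 50.1, 16.8 and 9.17 CPM to 2.17, 0.64 and 0 CPM. Sult1e1, C130026I21Rik and Gm2619 passed in all 6 fits that left out a library, Cybrd1 in 4, Gm7609 in 3, C7, Col8a1 and Hoxa10 in 2 and Avpr1a in 1. With length corrected Avpr1a did not pass (adjusted p = 0.0517) and the others did.

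Markers of other cells moved along with some of these groups. Summed over the 8 endothelial markers, the level was 1058 to 2441 CPM in Mof+/+ and 346 to 537 CPM in Mof+/-, with 5 of 8 lower by test, beside 1.76% of all genes, and no marker was at 0. The 5 calls were 1, 2 and 3 without Mof+/+ replicates 1, 2 and 3, and 5, 0 and 5 without Mof+/- replicates 1, 2 and 3. The mesothelial sum was 36.8 to 125 CPM in Mof+/+ and 283 to 479 CPM in Mof+/-, with 4 of 11 higher, beside 3.21% of all genes. These calls were 0 with all 10 libraries in 1 fit, and 0, 0 and 3 higher without Mof+/+ replicates 1, 2 and 3 and 3, 0 and 5 without Mof+/- replicates 1, 2 and 3. With length corrected 4 rose. The members that rose included Upk3b (8.31, 11.2 and 17.7 CPM against 186, 145 and 79.9 CPM) and Msln (1.59, 4.06 and 7.94 CPM against 47.7, 59.0 and 38.9 CPM). The smooth muscle and pericyte sum was 741 to 1173 CPM in Mof+/+ and 443, 3367 and 7423 CPM in Mof+/- replicates 1 to 3. Glial markers were highest in Mof+/+ replicate 2, with a sum of 1117 CPM there, 104 and 151 CPM in the other Mof+/+ libraries and 51.6 to 76.1 CPM in Mof+/-, and Kif5a, a neuronal kinesin, was at 99.4 CPM there and 23.9 and 29.5 CPM in the other Mof+/+ libraries. The 4 glial calls among 8 markers tested, Cldn11, Kcnj10, Mobp and Slc1a2, beside 1.76% of all genes that fell, were 1 by exon union, 2 with all 10 libraries, 0 without any one Mof+/+ library or Mof+/- replicate 2, and 2 and 1 without Mof+/- replicates 1 and 3. Kcnj10 did not pass with length corrected (adjusted p = 0.0605). Lymphocyte markers were high in Mof+/+ replicate 3 (1259 CPM against 268 to 694 CPM in the other libraries). Of 11 markers of the female reproductive tract, 5 were tested and Star, the cholesterol transporter of steroid-making cells, rose to 13.7, 16.8 and 6.13 CPM from 1.82, 0.99 and 0.78 CPM, where 3.21% of all genes rose. Star passed in 1 of the 6 fits that left out a library, and no gene of the list passed on total counts, with the replicate block or with all 10 libraries. None of 11 markers of the male tract had enough counts to be tested, with sums of 1.60 to 11.1 CPM in Mof+/+ and 0 to 0.53 CPM in Mof+/-. Of 2 liver markers tested out of 5, Alb rose, from 10.5, 17.2 and 4.58 CPM in Mof+/+ to 66.6, 283 and 59.9 CPM in Mof+/- (edgeR adjusted p = 0.036, and 0.104 with length corrected), beside 3.21% of all genes. Ahsg lay higher without overlap and did not pass, at 0.91, 0 and 0.45 CPM against 1.28, 22.8 and 3.43 CPM (edgeR adjusted p = 0.113). The sum of the 5 liver markers was 411 CPM in Mof+/- replicate 2, and without a filter edgeR called all 5 higher. Of 10 progenitor markers 1 rose, Pi16, beside 3.21% of all genes, and it passed in none of the 6 fits that left out a library, on total counts or with the replicate block. All 10 had a positive log2 fold change, with a median of 1.07, or 0.96 with length corrected. Without overlap 4 lay higher, beside 17.4% of all genes. The progenitor sum was 651 to 889 CPM in Mof+/+ and 1016 to 1597 CPM in Mof+/-. On total counts the sums overlapped, at 1026 CPM in Mof+/+ replicate 3 and 838 CPM in Mof+/- replicate 3. None of 6 skeletal muscle, 4 neuronal, 5 red blood cell and 7 thermogenic adipocyte genes passed in edgeR. The part of these cells in the differences above was not tested.

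**Figure D5:**
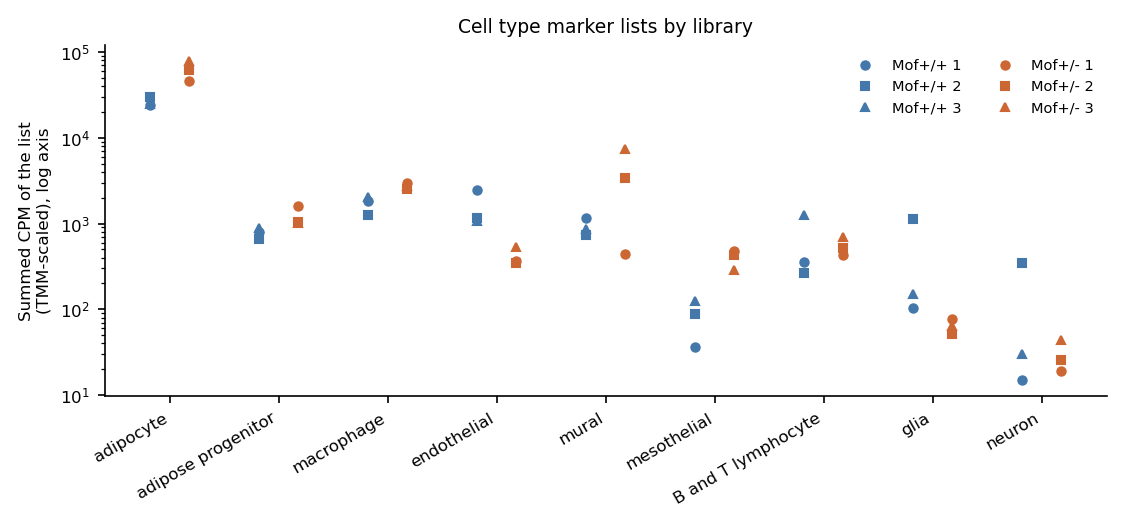
Summed TMM-scaled CPM of each cell type marker list in each library, on a log axis, with Mof+/+ in blue and Mof+/- in orange. Endothelial sums are lower, and mesothelial, adipocyte, progenitor and macrophage sums higher, in all 3 Mof+/- libraries than in any Mof+/+ library. The mural sum is high in Mof+/- replicates 2 and 3, and the glial and neuronal sums are high in Mof+/+ replicate 2.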

How the data were processed

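Poly(A) RNA of visceral WAT was sequenced after TruSeq library preparation. Per the submitters' processing notes and the methods, the authors used STAR for alignment (GRCm38) and featureCounts (Subread 1.5.0-p1) for counting, and deposited raw counts per gene, one file per library. The annotation release is not given in the sources used here. Of 47937 gene identifiers, 47310 matched GENCODE M21 when versions were ignored, and 99.8% of tested genes had a transcript length (median over a gene's transcripts).

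Groups were taken from sample labels. The labels give 3 biological replicates per group. Genes with at least 10 counts in at least 3 of the 6 libraries were fitted with edgeR 4.0.16 (TMM, quasi-likelihood test, genotype alone, Benjamini-Hochberg, threshold 0.05), in R 4.3.3, after the fit was tested on simulated data. Standard errors are of log2 fold changes, computed as the absolute change divided by the square root of the test's F statistic. The common biological coefficient of variation was 0.54. For the length correction, a lowess curve (span 0.3) of each library's deviation on log2 length was removed as an offset. Bounds use a floor of 3 counts per library, for counting error only. Promoter windows are from RefSeq (GRCm38.p6). Python 3.11.15 made tables and figures.

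The members and the 29 process and 18 marker lists were chosen with earlier results of these data known. Genes were named as the targeted and sex-linked genes, and up to 12 called genes per direction of largest change with no overlap and a mean of at least 50 counts. Per list, up to 4 members per direction of smallest p were named, only among calls with no overlap, and 3 of highest level. The 4 longest transcripts that fell with a mean of at least 50 counts were named too. Genes outside this rule that the text names to list the members of a group were picked after their values were seen. Naming by shortest protein was left out, since protein sequences were not used here. Alternatives were DESeq2 1.42.0, other scaling and filters, a replicate block, all 10 libraries, thinning, length offsets, the exchange of replicate 3 between genotypes and each library left out.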

Additional observations from a re-analysis of the deposited data

How the results depend on the processing

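Of 714 calls, 711 were also made by DESeq2, which called 2208 genes (1299 higher, 909 lower). Without a filter 1840 genes passed (1080 and 760), with all 10 libraries in 1 fit 394 (289 and 105), with total counts 150 higher and 522 lower, with the exon-union length offset 359 (228 and 131), with the transcript-length offset 451 (276 higher), with length and GC content, an alternative chosen after seeing the data, 466 (290 higher), and with the third libraries exchanged 0 (0 and 0), where 1016 genes rather than 4979 had no overlap. Leaving out 1 library gave 17 to 1128 genes (11 to 723 higher, 5 to 405 lower). It also gave 5779 to 7073 genes without overlap, a count that fewer libraries raise by themselves. The length difference between genotypes was then -0.49 to -0.35. By exon union that difference was -0.56, against -0.39. The replicate numbers did not pair the libraries (same-number correlations 0.03, 0.02 and 0.06). With a replicate block 505 genes passed, 327 higher and 178 lower, 412 of them shared.

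Of list medians larger than their spread between libraries, those that reversed with the third libraries exchanged were oxidative phosphorylation (-0.20), ribosomal proteins (-0.078), proteasome (-0.11), insulin signaling (0.057), thermogenic adipocyte (0.05), the MOF complexes (0.008), other acetyltransferases (0.15), lymphocytes (2.82), skeletal muscle (-0.43) and red blood cells (-0.18). Single genes reversed there were Eif2s3x (-0.30), Tagln (-1.18), Acta2 (-0.90), Tpm2 (-1.44), Pdlim3 (-1.25), Atp5h (-0.076), Ndufs5 (-0.002), Cox7c (-0.40), Cox4i1 (-0.25), Fabp4 (-0.26), Cavin1 (-0.22), Ccl2 (-0.18), Cxcl2 (-1.06), Nfkb1 (0.10), Hist1h2bc (-0.19), Hist1h4h (-0.25) and C130026I21Rik (-0.10). On total counts the medians of the citric acid cycle (-0.087), glycolysis (-0.071), lipolysis (-0.12) and adipokines (-0.07) and the change of Atp5b (-0.093) reversed. Under the length offsets glycolysis (-0.028, and -0.005 with GC), matrix proteases (0.084, 0.069 by exon union, 0.069 with GC), red blood cells (-0.42 by exon union) and Cfd (-0.30 by exon union) reversed, and the lymphocyte median also did without Mof+/+ replicate 3 (0.93), with a range of -3.49 to 0.93 over the 6 libraries left out. Smaller medians also changed sign. With the third libraries exchanged these were the mural (-0.86) and X-linked partner (0.14) lists, and on total counts the mitochondrial genome (-0.12), clock (-0.25), interstitial matrix (-0.015) and MHC class II (-0.16) lists. Under the transcript-length and exon-union offsets they were the mitochondrial genome (-0.15 and -0.71), triglyceride synthesis (0.18 and 0.13) and inflammatory mediators (0.44 and 0.47), all 3 likewise with GC, and by exon union MHC class II (-0.16). Triglyceride synthesis (0.011) and inflammatory mediators (0.30) changed with the replicate block, and the latter also with upper-quartile factors, no filter and all 10 libraries (0.036, 0.195 and 0.031). Over the 6 libraries left out, clock, interstitial matrix, triglyceride synthesis, MHC class II and inflammatory medians took both signs. Medians that moved by over 1.5 times included those of the mitochondrial genome (0.07 without Mof+/- replicate 1, 0.38 without Mof+/+ replicate 1), matrix proteases (-0.49 and -0.074 without the same libraries), the mural list (0.73 without Mof+/+ replicate 1, 0.18 without Mof+/- replicate 3), the citric acid cycle and glycolysis (0.14 and 0.15 without Mof+/- replicate 1), lipolysis (0.052 without Mof+/- replicate 2) and adipokines (0.44 without Mof+/+ replicate 2 or Mof+/- replicate 3). The cause was not tested. Of 110 named genes, 92 of them called, the calls lost in the same direction were 0 under upper-quartile factors, filterByExpr or no filter, 0 under DESeq2 leaving out Mobp and Snap25, which had no adjusted p there, 3 under thinning leaving out Snap25, which was not tested there, 4 with DESeq2 size factors, 17 with the replicate block, 18 on total counts, 23 with the transcript-length offset and also with GC, 35 with all 10 libraries, 39 by exon union and 77 with the third libraries exchanged. Without Mof+/+ replicates 1, 2 and 3 they were 79, 71 and 60, and without Mof+/- replicates 1, 2 and 3 they were 13, 79 and 13. Depth of 6724618 counts in the shallowest library limits genes near the floor.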
